A study of Rattus norvegicus with 69 samples.

Results

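Voltage-gated calcium channels were followed through 10 subunit genes, measured by 21 of the 8799 probe sets of a rat Affymetrix array. The members are every probe set that the array's annotation assigns to Cacna1a, Cacna1b, Cacna1c, Cacna1d, Cacna1g, Cacna2d1, Cacnb1, Cacnb2, Cacnb3 or Cacnb4, each kept separate. The tissue was hippocampal CA1, dissected from 69 male Fischer 344 rats (Fisher 344 in the sample labels) of 3 to 5 months, with 1 array per animal. Home cage animals (HC) were the controls, and sleep-deprived animals spent 24 hours (24SD) or 72 hours (72SD) with a cage mate on small platforms over water. The animals stressed by the unfamiliar chamber alone (24NES, 72NES) were kept in it for the same times, with a grid that covered the platforms and left sleep possible. There were 5 HC, 8 24SD, 8 72SD, 10 24NES and 6 72NES arrays in cohort 1, against 12 HC, 8 24SD and 12 72SD arrays in cohort 2. Active avoidance training came first for the HC and SD rats of cohort 1. It is not stated for the NES animals or for cohort 2, so training cannot be told apart from cohort, nor from NES against HC. Which rats were paired in a chamber is not given in the sources used here, and every test takes the arrays as independent.

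Each of these channels is built around a pore-forming α1 subunit, which opens on depolarization and sets the type of current. Cacna1a and Cacna1b encode the P/Q-type and N-type pores that trigger transmitter release, Cacna1c and Cacna1d the L-type pores that link dendritic and somatic depolarization to gene expression and to slow afterpotentials, and Cacna1g a T-type pore that opens near the resting potential and serves burst firing. The auxiliary α2δ and β subunits bring the high-voltage-activated pores (P/Q, N and L) to the membrane and tune their gating.

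Values are the log2 of the MAS5 signal, the summary brightness of a probe set that Affymetrix software computes on a linear scale. They compare arrays for 1 probe set and are not set against another probe set. Of the 21 member probe sets, 14 lay in the upper 50% of mean signal over the array (above a signal of 443.275, from the mean of the log2 values) and 7 in the lower 50%, among them Cacnb4, 4 of the 5 for Cacna1d and 2 of the 3 for Cacna1c. The median SD between animals of the same group and cohort was 0.25 on the log2 scale for the 14 brighter ones and 0.63 for the 7 dim ones, against 0.34 over all 8740 probe sets other than controls. Statements on the dim probe sets therefore rest on wider spreads. The tissue had strong signals for the pyramidal markers Nrgn (mean signal 26488) and Hpca (22635), while Slc17a7 lay near the floor of the array (22.0). The dentate markers Calb1 (4598) and Neurod1 (2111) were present as well, and the annotation has no probe set for their fellow markers Prox1 and Dsp. In such bulk tissue, fewer cells of a type and less RNA per cell cannot be told apart.

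Sleep deprivation left no member past an adjusted p of 0.05 in limma's F-test over both durations, where 10 of 8740 probe sets (0.114%) passed. At an unadjusted p under 0.05, 4 of the 21 member probe sets were called, against 10.3% of all probe sets. All 4 were lower than HC, as were 6.27% of all probe sets: Cacna1g, Cacnb1, 1 of 4 for Cacna1a and 1 of 3 for Cacna1c. At 24SD, 7 were lower and 1 higher at an unadjusted p, with a background of 9.08% lower and 5.69% higher (14.8% in all), and none passed the adjusted test, which 0.206% of all probe sets did. At 72SD only Cacna1g was below an unadjusted p of 0.05, with a background of 7.16%, and the adjusted test, with a background of 0.0229%, called none. The median change over the 21 was -0.08 at 24SD and -0.05 at 72SD, beside -0.03 and -0.01 over all probe sets. The size of the change was smaller at 72SD than at 24SD for 18 of the 21, and the sign was the same at both for 19. These contrasts share the HC arrays, and the shares of all probe sets with a smaller size or the same sign were not counted.

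**Figure D1:**
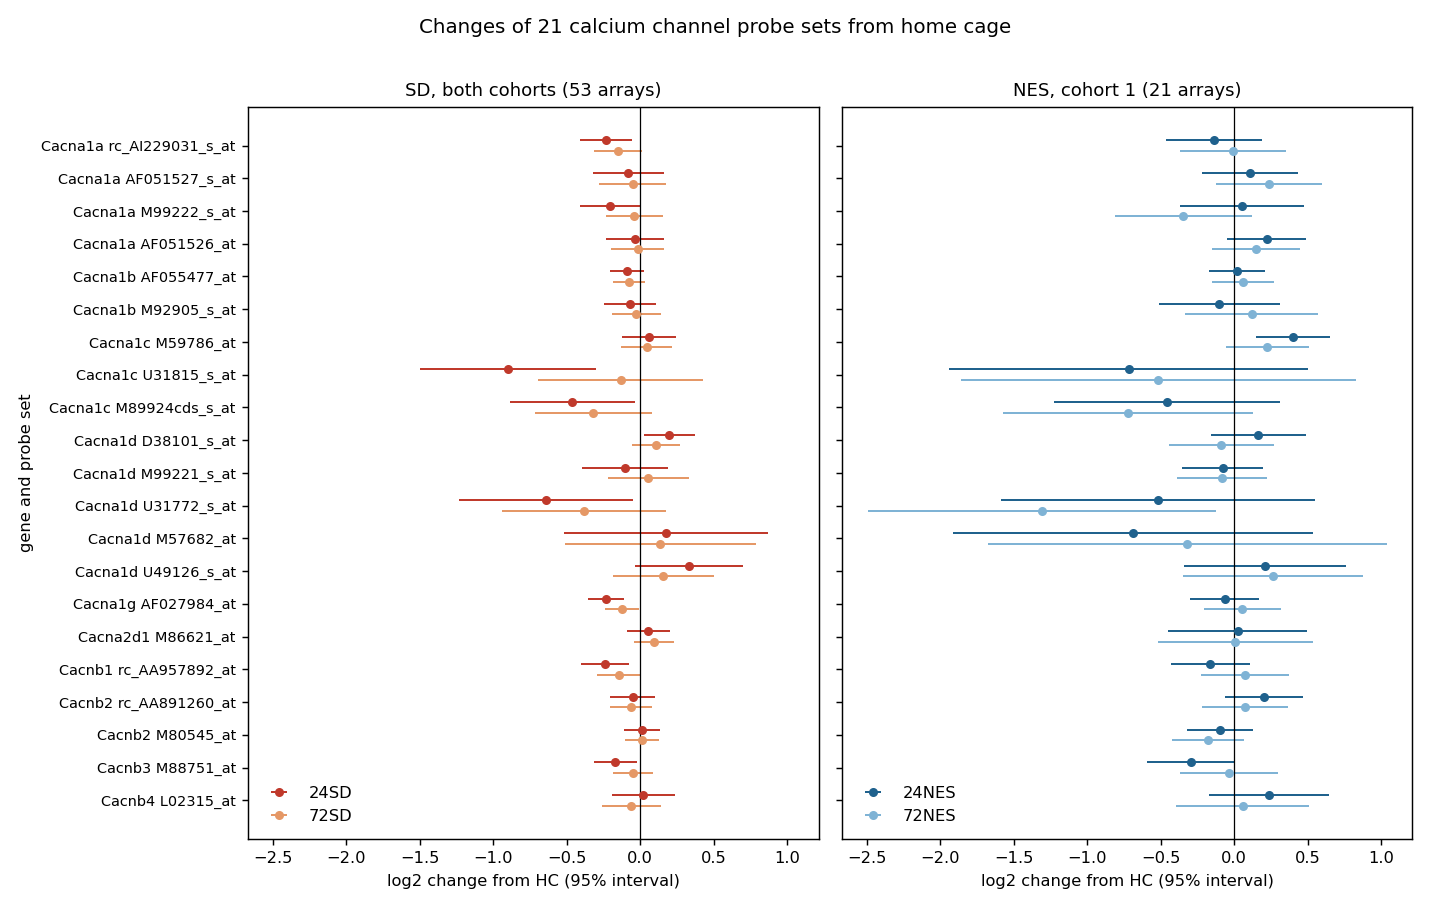
Change from HC on the log2 scale with its 95% interval for the 21 member probe sets, for SD (left, both cohorts) and NES (right, cohort 1 alone); the horizontal axis is the same in both. Most points for 24SD lie left of 0, the interval for Cacna1g at 24SD runs from -0.36 to -0.11, and the dim probe sets of Cacna1c and Cacna1d have the widest intervals.

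Cacna1g, the T-type pore, had the smallest p of the members in the F-test, at 24SD and at 72SD. In cohort 1 its log2 signals in HC were 10.46, 10.15, 9.84, 10.31 and 10.03. The 8 24SD arrays of that cohort ran from 9.87 through a median of 9.96 to 10.21, and the 8 72SD arrays from 9.77 through 10.06 to 10.44. In cohort 2 the HC arrays ran from 9.75 through 9.96 to 10.19, the 24SD arrays from 9.35 through 9.68 to 9.97, and the 72SD arrays from 9.57 through 9.84 to 10.03. The 24SD arrays thus sat low within the HC range or under it, with overlap in both cohorts, and 15 of 16 were below the HC mean of their cohort. Among the 72SD arrays 13 of 20 were.

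The Cacna1g change was -0.23 ± 0.062 (SE) at 24SD, or -14.9% in signal (limma, unadjusted p = 0.000437, adjusted p = 0.0745), and -0.12 ± 0.058 at 72SD (unadjusted p = 0.0406, adjusted p = 0.666). The difference of 72SD from 24SD was 0.11 ± 0.059 (unadjusted p = 0.0660, adjusted p = 0.998). Within cohort 1 alone the 24SD change was -0.16 ± 0.11 and within cohort 2 alone -0.28 ± 0.076 (limma, adjusted p = 0.633 and 0.412). Whether Cacna1g passes at 24SD depended on which probe sets were tested: with the upper 50% of signals alone the adjusted p was 0.0452, and with the brightest probe set of each gene among them 0.0402. Over all alternatives tried it ran from 0.0402 to 0.633. HC replicate 3 was the lowest HC array of cohort 1 for Cacna1g, so leaving it out enlarges the decrease. Its 3′ to 5′ GAPDH ratio of 1.18 was the highest of its group. Without this array the change was -0.26 and the adjusted p 0.0409. Without array 32 of 24SD in cohort 2, the lowest of its group for Cacna1g (9.35) and set apart by a signal of 25272 for Ttr, a choroid plexus gene, it was -0.20 with an adjusted p of 0.133. The highest Ttr signal among the other 68 arrays was 1618.

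**Figure D2:**
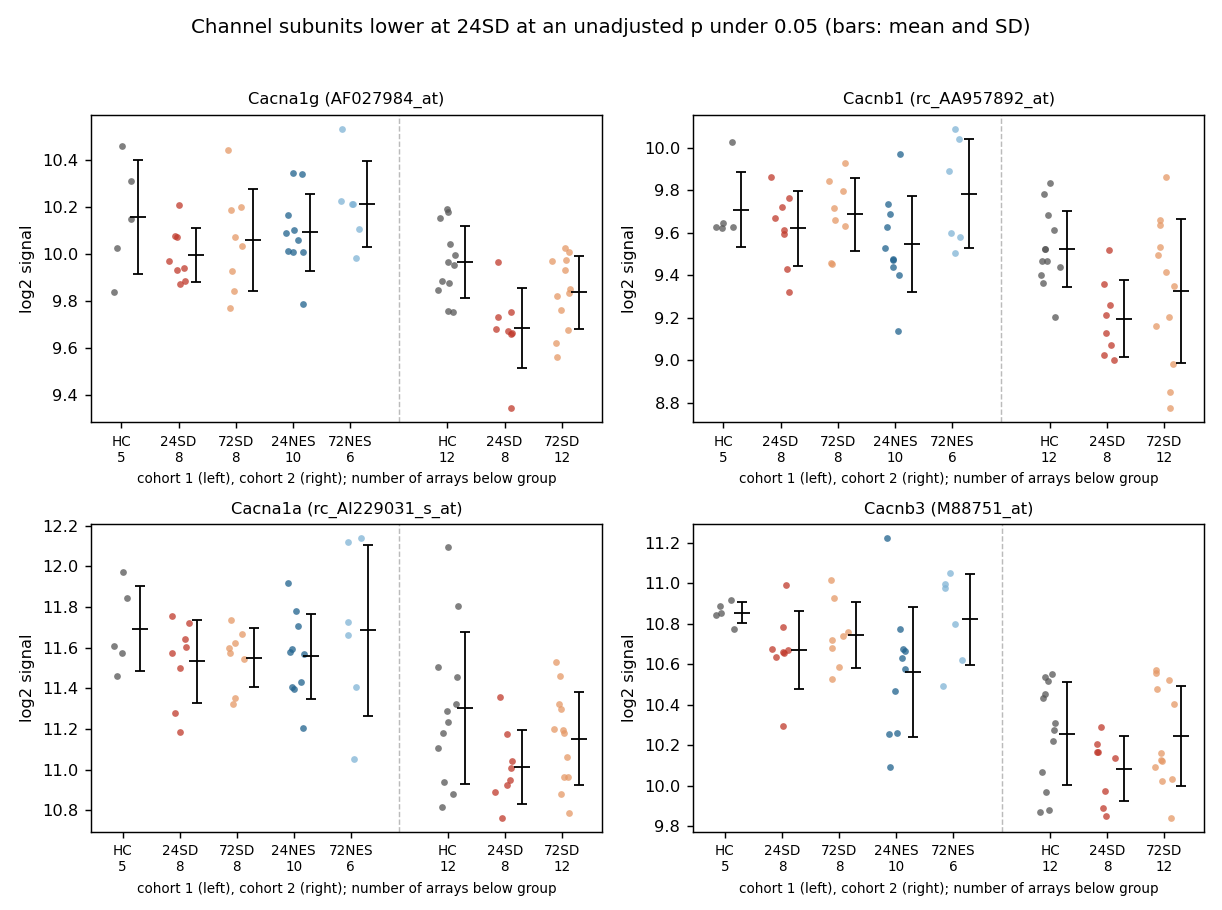
Log2 signal of every animal (1 point each) for Cacna1g, Cacnb1, the brightest Cacna1a probe set and Cacnb3, by group and cohort, with mean and SD beside the points and the number of arrays under each group name. In cohort 2 the 24SD mean is the lowest of the 3 groups for all 4 genes, and Cacnb3 shows the gap between the cohorts.

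Of the P/Q-type pore Cacna1a, the brightest probe set (rc_AI229031_s_at) followed the same course. Its HC signals in cohort 1 were 11.84, 11.97, 11.61, 11.58 and 11.46, and the 24SD arrays there ran from 11.19 through 11.59 to 11.76. In cohort 2 HC ran from 10.82 through 11.26 to 12.09 and 24SD from 10.76 through 10.98 to 11.36. Both cohorts overlapped, and 13 of 16 24SD arrays and 16 of 20 72SD arrays fell below their HC mean. The change was -0.23 ± 0.088 at 24SD (limma, unadjusted p = 0.0103, adjusted p = 0.196) and -0.15 ± 0.083 at 72SD (adjusted p = 0.700). The other Cacna1a probe sets were at -0.20 ± 0.10 (M99222_s_at), -0.08 ± 0.12 (AF051527_s_at) and -0.04 ± 0.097 (AF051526_at) at 24SD, with adjusted p of 0.349, 0.802 and 0.897. So all 4 pointed down over both cohorts joined, and only the brightest was under an unadjusted p of 0.05. The cohorts did not agree for all of them at 24SD. AF051526_at and AF051527_s_at stood 0.17 and 0.0005 above the HC mean in cohort 1, and at -0.16 and -0.14 in cohort 2. M99222_s_at and the brightest were lower in both cohorts.

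The N-type pore Cacna1b was close to HC in size. Its brightest probe set (AF055477_at) had HC signals of 11.50, 11.61, 11.54, 11.55 and 11.31 in cohort 1, where 24SD ran from 11.14 through 11.38 to 11.57. The HC arrays of cohort 2 ran from 10.96 through 11.14 to 11.60 and 24SD from 11.02 through 11.15 to 11.28. In cohort 1, 3 of 8 24SD arrays were below every HC array, in cohort 2 none, and 13 of 16 24SD and 14 of 20 72SD arrays were below their HC mean. The change was -0.09 ± 0.058 at 24SD and -0.08 ± 0.054 at 72SD (limma, adjusted p = 0.484 and 0.766). The 95% interval at 24SD, -0.20 to 0.03, was the narrowest of the 21 at 24SD. The second probe set, M92905_s_at, gave -0.07 ± 0.088 and -0.03 ± 0.082.

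The 3 probe sets of the L-type pore Cacna1c disagreed. The brightest, M59786_at, was at 0.06 ± 0.092 at 24SD and 0.04 ± 0.086 at 72SD over both cohorts (limma, adjusted p = 0.802 and 0.926). The dim U31815_s_at was at -0.90 ± 0.30 at 24SD (unadjusted p = 0.00398, adjusted p = 0.140) and -0.13 ± 0.28 at 72SD. Its HC signals in cohort 1 were 7.93, 8.37, 7.14, 8.40 and 6.03, with 24SD from 5.57 through 7.16 to 8.10. HC in cohort 2 ran from 5.52 through 7.17 to 8.37, 24SD from 5.35 through 6.01 to 7.28 and 72SD from 4.83 through 7.10 to 7.62. These ranges overlapped, since animals of the same group differed by over 1 log2 unit at either end.

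U31815_s_at was also the member with the smallest p between the durations: 72SD exceeded 24SD by 0.77 ± 0.28 (limma, unadjusted p = 0.00937, adjusted p = 0.998), the only one of 21 under an unadjusted p of 0.05, where 4.11% of all probe sets were and 0 of 8740 passed the adjusted test. The third Cacna1c probe set, M89924cds_s_at, was dimmer still, with signals from 23.8 to 207.9 on the linear scale, and stood at -0.46 ± 0.21 at 24SD (unadjusted p = 0.0338, adjusted p = 0.296) and -0.32 ± 0.20 at 72SD.

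Cacna1d, the other L-type pore, held the only member above HC at an unadjusted p at 24SD. Its brightest probe set (D38101_s_at) had HC signals of 9.06, 9.61, 9.81, 9.50 and 9.29 in cohort 1, with 24SD from 9.20 through 9.54 to 10.04. In cohort 2 HC ran from 8.64 through 9.27 to 9.57, 24SD from 9.20 through 9.54 to 9.63 and 72SD from 9.01 through 9.29 to 9.75. In cohort 2, 4 of 8 24SD arrays were above every HC array and the others within the HC range, and 12 of 16 24SD arrays were above their HC mean. The change was 0.20 ± 0.087 at 24SD (limma, unadjusted p = 0.0272, adjusted p = 0.274) and 0.11 ± 0.082 at 72SD (adjusted p = 0.783). Of the 4 dim Cacna1d probe sets, U31772_s_at was at -0.64 ± 0.30 at 24SD (unadjusted p = 0.0348, adjusted p = 0.298), and M99221_s_at, M57682_at and U49126_s_at were at -0.10 ± 0.15, 0.18 ± 0.35 and 0.33 ± 0.18.

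Cacna2d1, the α2δ subunit on the array and the target of gabapentin, differed little between groups. HC signals in cohort 1 were 12.63, 12.12, 12.78, 12.74 and 12.56, with 24SD from 12.13 through 12.58 to 12.84. For cohort 2 the HC arrays ran from 12.46 through 12.74 to 12.97 and 24SD from 12.59 through 12.75 to 13.33. The groups shared most of their range, and the change was 0.06 ± 0.073 at 24SD and 0.09 ± 0.068 at 72SD (limma, adjusted p = 0.772 and 0.780), with a 95% interval of -0.09 to 0.20 at 24SD.

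Among the β subunits, which chaperone the pores to the membrane, Cacnb1 had the second smallest p in the F-test among member probe sets in the upper 50% of signal. Its HC signals in cohort 1 were 9.63, 9.63, 9.64, 10.03 and 9.62, with 24SD from 9.32 through 9.64 to 9.86. In cohort 2 HC ran from 9.20 through 9.50 to 9.83, 24SD from 9.00 through 9.17 to 9.52 and 72SD from 8.77 through 9.38 to 9.86. The shift lay mainly in cohort 2, and 13 of 16 24SD arrays were below the HC mean of their cohort. In cohort 1 that mean was raised by 1 HC array at 10.03. The other HC arrays there lay between 9.62 and 9.64, level with the 24SD median of 9.64. The change was -0.24 ± 0.081 at 24SD (limma, unadjusted p = 0.00476, adjusted p = 0.148) and -0.14 ± 0.076 at 72SD (adjusted p = 0.700). Within cohort 1 it was -0.09 ± 0.11 at 24SD and within cohort 2 -0.33 ± 0.12, and the test of the difference between the cohorts over both durations gave an unadjusted p of 0.336 (adjusted p = 0.949, limma).

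Cacnb3, the β subunit associated with N-type and L-type channels in hippocampal neurons, was at -0.17 ± 0.073 at 24SD (limma, unadjusted p = 0.0249, adjusted p = 0.267) and -0.05 ± 0.069 at 72SD. HC signals in cohort 1 lay within 10.78 and 10.92 (10.85, 10.92, 10.89, 10.84 and 10.78), and the 24SD arrays ran from 10.29 through 10.67 to 10.99. HC of cohort 2 ran from 9.87 through 10.29 to 10.55 and 24SD from 9.85 through 10.15 to 10.29. In cohort 1, 6 of 8 24SD arrays were below every one of these closely spaced HC arrays and 1 above them all, in cohort 2 only 1 of 8 was below every HC array, and over both cohorts 14 of 16 were below their HC mean.

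Cacnb2 and Cacnb4 were close to HC over both cohorts. For Cacnb2, rc_AA891260_at was at -0.05 ± 0.075 at 24SD and -0.06 ± 0.071 at 72SD, and M80545_at at 0.01 ± 0.062 and 0.01 ± 0.058. HC signals of rc_AA891260_at in cohort 1 were 11.18, 11.24, 10.88, 11.30 and 10.69, with 24SD from 10.63 through 11.10 to 11.25. Among cohort 2 animals HC ran from 10.52 through 10.91 to 11.20 and 24SD from 10.69 through 10.88 to 10.99, inside the HC range. Cacnb4 was at 0.02 ± 0.11 and -0.06 ± 0.10 (limma, adjusted p = 0.946 and 0.911), but these means join opposite courses in the cohorts.

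In cohort 1 the HC signals of Cacnb4, whose loss causes ataxia and seizures in the lethargic mouse, were 8.41, 7.74, 7.88, 7.37 and 8.01. The 24SD arrays there ran from 7.74 through 8.27 to 8.49 and the 72SD arrays from 7.78 through 8.26 to 8.63. In cohort 2 HC ran from 8.15 through 8.53 to 9.00, 24SD from 7.82 through 8.39 to 8.74 and 72SD from 7.68 through 8.30 to 8.59. SD arrays were thus high against HC in cohort 1 and low against HC in cohort 2, while the SD arrays of the cohorts covered nearly the same range. At 24SD the change was 0.36 ± 0.16 in cohort 1 and -0.15 ± 0.12 in cohort 2, and at 72SD 0.36 ± 0.16 and -0.27 ± 0.11. The mean SD response differed between the cohorts by 0.57 ± 0.18 (limma F-test of both interaction terms, unadjusted p = 0.00703, adjusted p = 0.452). Cacnb4 was the only one of 21 under an unadjusted p of 0.05 in that test, which 6.76% of all probe sets were, and 0.0343% passed the adjusted one.

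**Figure D3:**
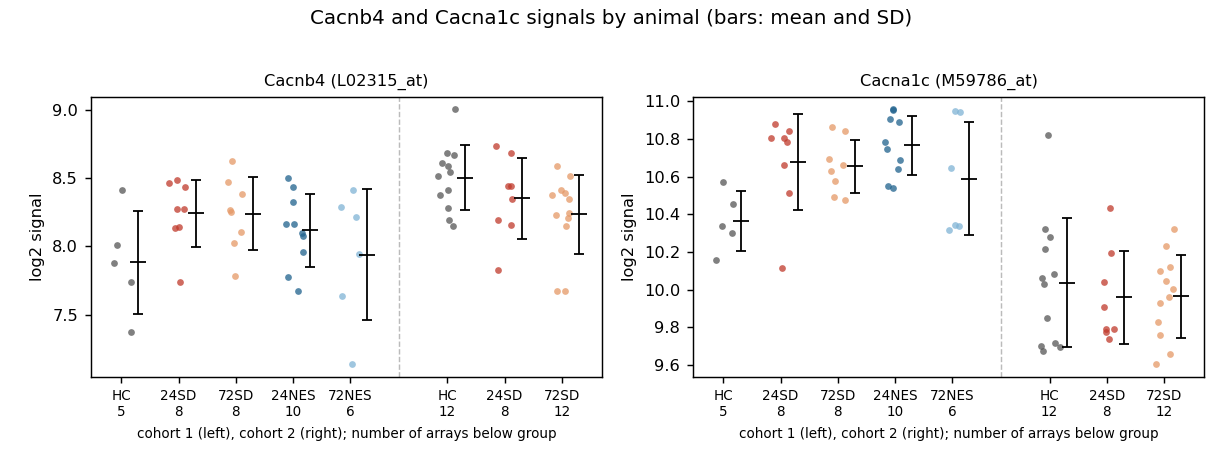
Log2 signal of every animal for Cacnb4 and the brightest Cacna1c probe set, by group and cohort, with mean and SD beside the points. The 5 HC arrays of cohort 1 lie low for Cacnb4 (mean 7.88) against those of cohort 2 (8.50), and for Cacna1c the 10 24NES points all lie above the HC mean of 10.37.

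The stress of the new chamber (NES), given in cohort 1 alone and tested against its 5 HC arrays, left no member past the adjusted test. In the F-test over both durations, 0 of 8740 probe sets passed the adjusted test and 8.63% an unadjusted p under 0.05, as did 1 of the 21 members, Cacna1c M59786_at. Its HC signals were 10.46, 10.16, 10.57, 10.30 and 10.34. The 24NES arrays ran from 10.54 through 10.76 to 10.96 and the 72NES arrays from 10.32 through 10.50 to 10.95. All 10 24NES arrays were above the HC mean and 8 of 10 above every HC array, and 3 of 6 72NES arrays were above that mean, all 3 above every HC array.

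The change of M59786_at was 0.40 ± 0.12 at 24NES, a signal higher by 32.1% (limma, unadjusted p = 0.00362, adjusted p = 0.221, background 10.7% at an unadjusted p and 0.0114% at an adjusted p), and 0.23 ± 0.14 at 72NES (adjusted p = 0.968). The same 5 HC arrays stand behind the SD values of cohort 1 for this probe set, 0.31 ± 0.12 at 24SD and 0.29 ± 0.12 at 72SD. In cohort 2, with its own 12 HC arrays, the SD changes were -0.08 ± 0.13 and -0.07 ± 0.11. The SD response of M59786_at differed between the cohorts by 0.38 ± 0.16 (limma F-test, unadjusted p = 0.0699, adjusted p = 0.772). The dim U31815_s_at and M89924cds_s_at were at -0.72 ± 0.58 and -0.46 ± 0.37 at 24NES, so the probe sets of Cacna1c pointed in different directions under stress as well.

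The members that were lower at 24SD were near HC or lower with NES. Cacna1g was at -0.07 ± 0.11 at 24NES and 0.06 ± 0.13 at 72NES, with 7 of 10 and 2 of 6 arrays below the HC mean. Cacnb1 was at -0.16 ± 0.13 and 0.07 ± 0.14, against an HC mean raised by 1 array at 10.03. The brightest Cacna1a probe set was at -0.13 ± 0.16 and -0.01 ± 0.17. Cacnb3 was at -0.29 ± 0.14 at 24NES (limma, unadjusted p = 0.0558, adjusted p = 0.478), with 9 of 10 arrays below every HC array and 1 above them all, and at -0.03 ± 0.16 at 72NES. At 72NES 1 of 21 was under an unadjusted p of 0.05 (background 5.03%), Cacna1d U31772_s_at at -1.31 ± 0.57 (adjusted p = 0.944), with signals as low as 3.93 on the log2 scale. The median 95% interval of a member was 0.65 wide at 24NES and 0.37 wide at 24SD, so NES values are less precise.

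Sleep deprivation and stress were set against each other at matched duration over the 37 arrays of cohort 1. At 24 hours 2 members were lower with SD than with NES at an unadjusted p under 0.05 (background 5.97%), and none passed the adjusted test, which 1 of 8740 (0.0114%) did. Cacna1b AF055477_at, which ran from 11.31 through 11.55 to 11.73 in 24NES, differed in 24SD by -0.17 ± 0.076 (limma, unadjusted p = 0.0289, adjusted p = 0.747). Cacnb2 rc_AA891260_at, which ran from 10.88 through 11.32 to 11.51 in 24NES, differed in 24SD by -0.25 ± 0.12 (unadjusted p = 0.0392, adjusted p = 0.797). Both pairs of groups overlapped. For Cacna1g SD minus NES was -0.10 ± 0.091 at the shorter duration and -0.15 ± 0.10 at the longer one (limma, adjusted p = 0.942 and 0.821), with a 95% interval of -0.28 to 0.09 at 24 hours. At 72 hours 0 of 21 were under an unadjusted p of 0.05, where 6.69% of all probe sets were, and 0 of 8740 passed the adjusted test.

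The clearest differences among the members were between the cohorts, in animals left in the home cage. Of the 21 probe sets, 10 passed the adjusted test in HC of cohort 1 against HC of cohort 2, against 21.9% of all probe sets. Of these 9 were higher in cohort 1 and 1, Cacnb4, lower. The median difference over the 21 was 0.31, beside 0.05 over all probe sets, and 18 of the 21 were higher in cohort 1. In HC, 24SD and 72SD alike, 17 of the 21 were higher in cohort 1 and 1, Cacna2d1, was lower. The study's notes report a higher scanner background in cohort 1, and cohort, training and background cannot be told apart here.

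**Figure D4:**
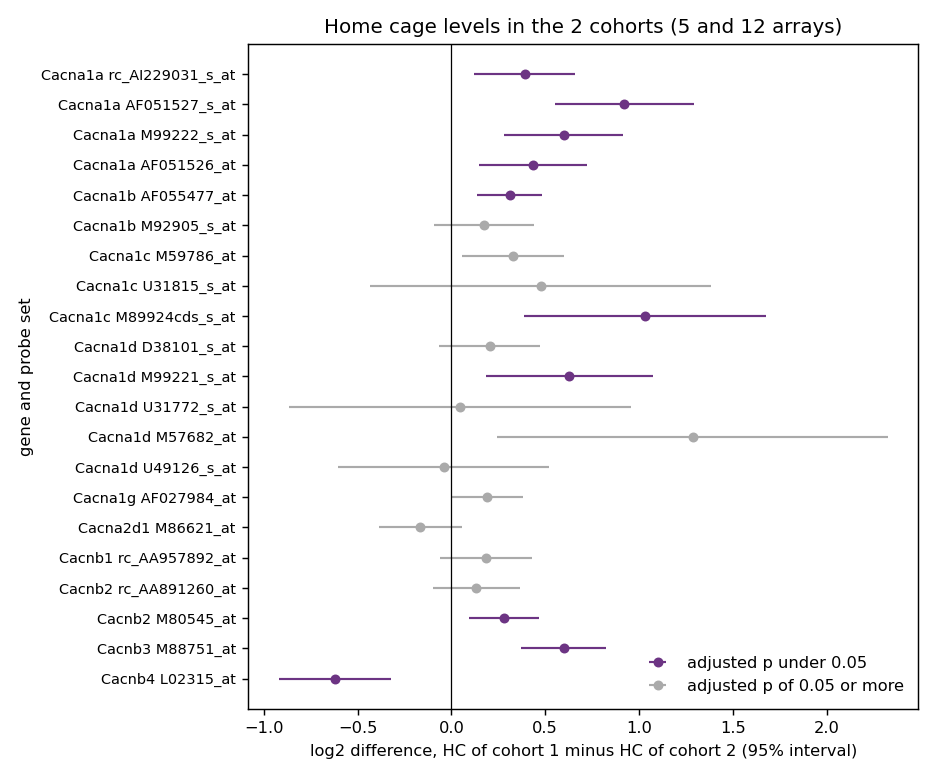
Difference on the log2 scale between HC of cohort 1 (5 arrays) and HC of cohort 2 (12 arrays) for the 21 member probe sets, with 95% intervals. The 4 probe sets of Cacna1a lie to the right of 0 with Cacnb3, and Cacnb4 lies to the left at -0.62.

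All 4 Cacna1a probe sets were higher in cohort 1. AF051527_s_at had HC signals of 9.73, 10.60, 10.38, 10.37 and 10.06 in cohort 1 and from 8.65 through 9.18 to 10.26 in cohort 2, with 3 of 5 above every cohort 2 array. Its difference was 0.92 ± 0.18 (limma, adjusted p = 0.000193), a signal 1.89 times as high. M99222_s_at, AF051526_at and rc_AI229031_s_at differed by 0.60 ± 0.16, 0.43 ± 0.14 and 0.39 ± 0.13 (adjusted p = 0.00455, 0.0244 and 0.0301). For Cacnb3 the HC arrays did not overlap between the cohorts. Its 5 HC arrays of cohort 1 lay between 10.78 and 10.92 and the 12 of cohort 2 reached at most 10.55. The difference was 0.60 ± 0.11 (limma, adjusted p = 8.18e-05). How many of all probe sets separate in the same way was not counted.

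Cacna1b AF055477_at differed by 0.31 ± 0.087, Cacnb2 M80545_at by 0.28 ± 0.093, Cacna1d M99221_s_at by 0.63 ± 0.22 and Cacna1c M89924cds_s_at by 1.03 ± 0.32 (limma, adjusted p = 0.00768, 0.0254, 0.0344 and 0.0161). Cacnb4 was lower in cohort 1, with a difference of -0.62 ± 0.15 (adjusted p = 0.00173), and 4 of its 5 arrays lay below every HC array of cohort 2. In the SD arrays the Cacnb4 gap was -0.11 at 24SD and 0.00 at 72SD, while that of Cacnb3 was 0.59 and 0.50 and that of Cacna1a AF051527_s_at 1.06 and 0.94. With HC arrays of cohort 1 left out in turn, 7 to 9 of the 21 passed.

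Markers of other cells moved with the same contrasts, and their part in the channel values was not tested. At 24SD the 3 dentate granule cell markers measured were all higher (median 0.29, 2 at an unadjusted p): Neurod1 at 0.36 ± 0.10 (limma, adjusted p = 0.0854), Il1rap at 0.29 ± 0.11 and Calb1 at 0.15 ± 0.085. Of all probe sets 5.69% were higher at an unadjusted p at 24SD and 9.08% lower. Calb1 is also counted here among the calcium buffers, so it does not stand for dentate cells alone. The paper lists Calb1 among genes lowered by both aging and SD, unlike the probe set read here. The summed signal of the 3 dentate markers ran from 6594 to 7571 in 24SD of cohort 1 and from 4904 to 6568 in HC there, and from 6776 to 10719 and 5199 to 9698 in cohort 2. All 3 were higher at 24NES too, with a median of 0.50, and all 3 lower in HC of cohort 1 than of cohort 2, with a median of -0.56. Of 5 pyramidal markers 4 were lower at 24SD, with a median of -0.12, and 4 were higher in HC of cohort 1, with a median of 0.34. The 1 at an unadjusted p at 24SD was Slc17a7 (-0.30 ± 0.13), which lay near the floor of the array. The bright Nrgn and Hpca were at -0.12 ± 0.061 and -0.12 ± 0.071, and Camk2a was higher at 0.16 ± 0.10. The summed signal of the 5 pyramidal markers ran from 53940 to 67044 in HC of cohort 1, 39720 to 56800 in HC of cohort 2 and 34483 to 52626 in 24SD of cohort 2. None of these markers passed the adjusted test at 24SD.

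The wider calcium machinery was read from the brightest probe set of each gene. At 24SD no gene of these lists passed the adjusted test, and over the 4736 genes with a symbol 57.6% were lower than HC, with a median of -0.03. At an unadjusted p under 0.05, 9.08% of all 8740 probe sets were lower at 24SD and 5.69% higher. The share over the brightest probe sets alone is not given here. Of 5 other channel subunits 3 were lower and none was under an unadjusted p of 0.05, Cacna1h, another T-type pore, being at -0.04 ± 0.15. With NES all 5 were higher at 24 hours, and the share of all genes higher at 24NES is not given here. Nalcn was at 0.20 ± 0.11, and the dim Cacng1 and Cacna1s at 0.04 ± 0.15 and 0.18 ± 0.20. Only Cacna1h was under an unadjusted p of 0.05 at 24NES, where 10.7% of all probe sets were. Cacna1h was at 0.60 ± 0.18 at 24NES (limma, unadjusted p = 0.00279, adjusted p = 0.211) and 0.69 ± 0.19 at 72NES (unadjusted p = 0.00202, adjusted p = 0.708). In 24SD against 24NES, within cohort 1, it was at -0.16 ± 0.18 (limma, unadjusted p = 0.375, adjusted p = 0.955). In 72SD against 72NES it was at -0.47 ± 0.20 (unadjusted p = 0.0249, adjusted p = 0.726). The -0.04 of Cacna1h at 24SD joins both cohorts, while its NES changes rest on cohort 1 alone, so these are not like for like. All 7 genes of calcium release and store entry were higher (median 0.12, 1 at an unadjusted p), and the smallest p was that of Itpr1, the neuronal inositol trisphosphate receptor, at 0.12 ± 0.048 (limma, adjusted p = 0.235). At 72SD 6 of the 7 were higher, with a median of 0.03.

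Of 11 extrusion and uptake genes 8 were lower at 24SD, 4 at an unadjusted p, with a median of -0.03. The 3 sodium-calcium exchangers Slc8a1, Slc8a2 and Slc8a3 were at -0.20 ± 0.088, -0.25 ± 0.088 and -0.23 ± 0.083, and the membrane pump Atp2b4 at -0.47 ± 0.23. Of 15 buffers and sensors 10 were lower, 4 of them at an unadjusted p, and 1, Pvalb, was higher at 0.19 ± 0.077. Ncs1, a calcium sensor that acts on presynaptic channels, had the smallest p of the list, at -0.27 ± 0.081 (limma, adjusted p = 0.104), with Hpcal1 at -0.21 ± 0.089 and Vsnl1 at -0.16 ± 0.061.

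Of 10 presynaptic partners, proteins that bind the P/Q-type and N-type pores or act beside them in release, 8 were lower at 24SD and 8 at 72SD, with medians of -0.08 and -0.08, where 57.6% and 55.4% of all genes were lower. Snap25 was at -0.24 ± 0.084 and -0.18 ± 0.079, Vamp2 at -0.18 ± 0.059 and -0.12 ± 0.056, and Unc13a at -0.18 ± 0.088 and -0.01 ± 0.082. In HC these partners were higher in cohort 1 for 8 of 10, with a median of 0.39, and 6 passed the adjusted test. Of all 8740 probe sets, dim ones included, 21.9% passed it. The partners were read from the brightest probe set of each gene, and the share over such probe sets is not given here. The count of 6 therefore has no like background beside it. Of 9 channel regulators 8 were lower at 24SD, 1 of them at an unadjusted p, where 9.08% of all probe sets were lower. That regulator was Gnao1, a G protein α subunit that couples receptors to the inhibition of N-type channels, at -0.16 ± 0.074. Of 4 calcium-activated potassium channels 3 were lower and none was under an unadjusted p of 0.05, Kcnma1 being at -0.02 ± 0.095.

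Where a gene had several probe sets, their agreement across animals was checked after the mean of each group and cohort had been taken out, over 69 arrays and 21 pairs, with p from 100000 permutations within groups. The 2 Cacna1a probe sets AF051527_s_at and rc_AI229031_s_at varied together (Pearson r = 0.64, Spearman rho = 0.56, each with permutation p = 1e-05, the smallest these can give, adjusted p = 0.00021). Without the 2 arrays farthest from the median of AF051527_s_at, r was 0.56. Arrays set apart in the other probe set were not left out. The 2 Cacna1b probe sets had r = 0.38 (permutation p = 0.00189, adjusted p = 0.0198) and rho = 0.35 (p = 0.00494, adjusted p = 0.0519). Without the 2 arrays farthest from the median of AF055477_at, their r was 0.29. Of the 21 pairs, 4 passed the adjusted threshold by r and 1 by rho. None of the 10 Cacna1d pairs passed, and D38101_s_at and M57682_at, for example, had r = 0.11 and rho = 0.08 (permutation p = 0.417 and 0.510, adjusted p = 0.515 and 0.670).

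The probe sets most like Cacna1g across the 69 arrays, by correlation of the same residuals against 6985 probe sets of other genes, were those of Bgn, Alpl and Mapt (r = 0.63, 0.61 and 0.60). For the brightest Cacna1a probe set they were Dgkg, Alpl and Cdk5r1 (r = 0.65, 0.64 and 0.62). For Cacnb1 they were Chrna7, Irs3 and Zfp580 (r = 0.56, 0.55 and 0.54), and for Cacna1c U31815_s_at B3gat1, Vom2r27 and Ola1 (r = 0.51, 0.50 and 0.48). These correlations are descriptions over arrays that share scaling and hybridization.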

How the data were processed

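Total RNA of each CA1 block was labelled and hybridized to 1 Affymetrix RGU34A array per animal. As deposited, the values are linear intensity signals from the authors' MAS5 run (no version is given in the sources used here), 1 per probe set, scaled per array and without a log or any standardization by cohort. Probe sets were named from GEO's platform annotation, and all 10 member genes matched RefSeq by gene number. Here, signals were set to at least 1 (45 zeros in the table, 0 in members), log2 transformed and otherwise used as deposited.

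All 8740 probe sets other than the 59 controls entered linear models in limma 3.58.1 (R 4.3.3), with variances moderated by eBayes. SD was tested over 53 arrays with cohort as a term, NES over 21 arrays of cohort 1, and SD against NES over the 37 arrays of cohort 1. Moderated F-tests covered both durations, and the change printed with them is their mean. Benjamini-Hochberg adjustment ran over all 8740, with 0.05 as the threshold for adjusted and unadjusted p. A log2 change is given ± SE with 95% intervals on the moderated degrees of freedom. Array signals are given for the brightest probe set of each member and for those under an unadjusted p of 0.05 in the F-tests or in SD against NES. They are not given for every group. For lists, up to 4 genes with the smallest p in the F-test of SD are named. Of each list only the genes on the array are counted: 5 of 17 other channel subunits, 7 of 12 for release, 11 of 14 for extrusion, 15 of 22 buffers, 10 of 15 partners, 9 of 15 regulators, 4 of 7 potassium channels, 5 of 6 pyramidal and 3 of 5 dentate markers. The other marker lists (inhibitory neurons, glia, microglia, vessels and blood, choroid plexus, thalamus and muscle) are given under other observations. The members and the lists were chosen with earlier results of these data known.

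Alternatives were quantile normalization, median centring, a floor of 50, the upper 50% of signals with every probe set or the brightest per gene, robust eBayes, no cohort term, each cohort alone, the methods' 1-way ANOVA on signals standardized by cohort, once on all values and once without those more than 2 SD from their treatment's mean, and leaving out single arrays, of which array 32 was chosen after seeing the data. The fits were tested on simulated data. Correlations and figures used Python 3.11.15, numpy 2.4.6 and matplotlib 3.10.9. Detection calls and scanner background are not used here, so a dim probe set is not known to be above background. The number of arrays limits the precision.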

Additional observations from a re-analysis of the deposited data

Results flagged for a closer look

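Over the member probe sets, 126 groups of 4 to 10 arrays within a cohort were checked for an array set apart from its group by the ratio of its gap to the group's range, and 9 were found. Chance flags about 1 in 20 such groups. In 24SD of cohort 1, array 21 was the lowest of its group for Cacna1a M99222_s_at (log2 signal 9.47, next 9.95) and for Cacnb4 (7.74, next 8.13), and array 23 was the lowest for Cacna1d M57682_at (3.23). In 24SD of cohort 2, array 30 was the highest for Cacna1c M89924cds_s_at (6.24, next 5.44). Its GAPDH ratio of 1.18 was also the highest of its group. In HC of cohort 1, replicate 4 was the highest for Cacnb1 (10.03, while the other 4 arrays lay between 9.62 and 9.64). In 24NES, array 58 was the lowest for Cacna2d1 (11.27, next 12.32). In 72NES, array 71 was the lowest for Cacna1a M99222_s_at (8.67), array 70 the lowest for Cacna1d M57682_at (3.71) and array 73 the highest for Cacnb2 M80545_at (10.29). Array 71 had the highest GAPDH ratio of the 69 arrays, 1.26.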

How the results depend on the processing

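The SD response of Cacna1g at 24 hours decided the count of members past the adjusted test at 24SD, which was 0 of 21 over all probe sets. It was 1 with the upper 50% of signals, with every probe set kept (adjusted p = 0.0452 over 4370) or with the brightest of each gene (0.0402 over 2689); fewer probe sets were then tested. With HC arrays of cohort 1 or array 30 or 32 left out in turn the count ran from 0 to 1, and 1 came without HC replicate 3. The Cacna1g change at 24SD was negative under every alternative, from -0.28 in cohort 2 alone to -0.16 in cohort 1 alone. In HC of cohort 1 against cohort 2 the count of 10 became 4 with the brightest probe set of each gene, where 9 members are tested, and 7 to 10 without single arrays. For the other comparisons the count stayed at 0 under every alternative, single arrays left out included.

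Cacnb4 at 24SD changed sign without HC replicate 2, 3 or 4 (single arrays left out gave -0.0415 to 0.0404), with no cohort term (-0.0223) and in cohort 2 alone (-0.150), and at 72SD in cohort 1 alone (0.357). Cacnb3 at 72SD was 0.0110 with no cohort term. Cacna2d1 at 24SD was -0.0227 in cohort 1 alone, and Cacna1c M59786_at in cohort 2 alone was -0.0785 at 24SD and -0.0730 at 72SD. The cause was not tested. Without array 32, chosen after seeing the data, the counts of the 4 comparisons that use it stayed at 0. Of the values of single probe sets under alternatives, 605 kept their sign and their side of the threshold, 13 lost the call, 6 gained it and 10 changed sign. At an unadjusted p, the F-test of SD called 4 members, and 7 with a floor of 50, 5 after quantile normalization, 4 after median centring, and 7 and 5 by the ANOVA of the methods without and with removal of values. That ANOVA with removal gave Cacna1g p = 0.00106 (adjusted p = 0.0522). Of all probe sets, 10.3% were called at an unadjusted p in the main F-test. That share is not given here for the alternatives, so their member counts have no background beside them. No scaling moved the median of all probe sets by over 0.1. No paired analysis was possible because every replicate number names a single animal and no number is shared between groups. Detection is unknown for the dim probe sets.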

Other observations

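Markers of the other cells that the block could hold were measured beside the channels. At 24SD 4 of 9 inhibitory neuron markers were higher and 5 lower (median -0.005), with Pvalb at 0.19 ± 0.077, Slc32a1 at -0.17 ± 0.071 and Calb2 at -0.15 ± 0.065. Of 5 astrocyte markers 3 were lower (median -0.06), Aqp4 being at -0.21 ± 0.097. Of 5 oligodendrocyte markers 4 were higher (median 0.05), and of 6 microglial markers 4 were lower (median -0.08). Of 3 markers of vessels and blood 2 were higher (median 0.08), of 3 of choroid plexus 2 (median 0.04, with the summed signal of array 32 of 24SD in cohort 2 at 26492, against at most 3140 in any other array), and of 4 of muscle 2 (median -0.03), Myh2 being at 0.59 ± 0.22. The only thalamic marker measured, Prkcd, was at -0.07 ± 0.079. None passed limma's adjusted test at 24SD. In HC of cohort 1 against cohort 2, the 3 choroid plexus markers were all higher (median 0.68, 0 past the adjusted test), and 3 of 9 inhibitory markers passed it. Of all probe sets 21.9% passed that test, so these counts are not read as a result about either cell type.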
